A study of Mus musculus with 14 samples.

Results

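Fatty acid oxidation was described through 32 genes chosen by name, of which 30 were listed in the count tables of both oocyte stages, out of 16417 genes listed in both. The remaining 2, Cpt1b and Ehhadh, were listed for germinal vesicle (GV) oocytes alone, with 2 counts and 1 count, each in a single GV WT library. In this pathway a fatty acid is first joined to coenzyme A, then carried into the mitochondrion as a carnitine ester. The carnitine acyltransferases form and split this ester. Each round of beta-oxidation then removes an acetyl-CoA unit through a dehydrogenation, a hydration, a second dehydrogenation and a thiolytic cleavage, and the electrons of the first step pass through the electron transfer flavoprotein to ubiquinone. Peroxisomes run a related cycle on very long and branched chains. In mouse oocytes, mitochondrial fatty acid oxidation is known as a source of ATP during meiotic maturation.

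The data were 14 RNA-seq libraries of mouse oocytes, prepared with SMART-Seq2, a method for whole transcripts of few cells. The study asked what loss of CLPX, the unfoldase of a mitochondrial matrix protease, does to oocytes. The groups were 3 libraries of ovulated CKO oocytes (Clpx fl/fl; Zp3-Cre), 3 of ovulated WT oocytes (written Clpx fl/f in the labels, without Cre), 4 of GV CKO oocytes (Clpx fl/fl; Zp3-Cre) and 4 of GV WT oocytes (Clpx fl/fl without Cre). GV oocytes still hold their large nucleus, before meiosis resumes, and ovulated oocytes are those released after maturation. Zp3-Cre is driven by the promoter of a zona pellucida gene, so that recombination takes place in growing oocytes and not in the other cells of the ovary. The animals' age, the number of oocytes and animals behind a library and any batches are not given in the labels, so p-values measure the spread between libraries, which may be in part technical.

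Total estimated counts were between 25086506 and 28471453 per library. Clpx was at 0.269 to 0.575 CPM in ovulated CKO against 17 to 19.1 CPM in ovulated WT libraries. In GV libraries it was at 0.676 to 1.44 CPM in CKO against 39.6 to 58.1 CPM in WT. Every library thus matched the genotype of its label, which is not a check of its stage. CPM are counts per 1e+06 after TMM scaling of all 14 libraries together. All 14 oocyte markers had counts in every library. In several of them ovulated CKO libraries 1 and 2 stood apart from the other ovulated libraries. Figla, an oocyte transcription factor, was at 13 and 10.1 CPM in them and 0.505 CPM in ovulated CKO library 3, against 0.638, 1.60 and 0.777 CPM in ovulated WT libraries. Zp2, a zona pellucida protein, was at 332, 443 and 91.5 CPM in ovulated CKO and 95.4, 89.8 and 78.8 CPM in ovulated WT libraries, and Zp1, Zp3, Nobox and Nlrp5 were likewise highest in these 2 among the ovulated libraries. The GV libraries held more of Figla and Zp2, at least 26.7 CPM of Figla and 2907 CPM of Zp2. Bmp15 was also highest in ovulated CKO libraries 1 and 2 among the ovulated libraries, whereas Gdf9, Oosp1, Dazl, Ddx4 and Mos were not. Kit was highest in them too, at 222 and 237 CPM, but GV libraries held less of it, 64.5 to 141 CPM. The part of this difference in the results was not tested, and results that rest on these 2 libraries are also given without them, where ovulated CKO library 3 alone is assumed to vary like the other groups. Of 16 granulosa and cumulus markers, 8 to 14 had counts, with a summed level of 33.7 to 48.6 FPKM in ovulated CKO, 34.2 to 69.9 FPKM in ovulated WT, 13.6 to 32.8 FPKM in GV CKO and 21.3 to 38.6 FPKM in GV WT libraries. Cyp19a1 made up most of these sums, whereas Amh and Foxl2 reached 0.05 FPKM at most in GV libraries and were not listed for ovulated ones. Ovulated WT library 3 differed from the other ovulated libraries, with 9.97 FPKM of Tnfaip6 and 9.4 FPKM of Hsd3b1, against at most 1.22 and 0.60 FPKM in the others. Of 14 theca, stromal, endothelial and blood markers, 2 to 10 had counts, and Pecam1 made up most of their sum, which was 23.4 to 40.4 FPKM in ovulated and 7.16 to 17.6 FPKM in GV libraries. The part of these other cells in the results was not tested, and in such libraries fewer cells of a type and less RNA per cell cannot be told apart.

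The pathway was expressed unevenly, with a few highly expressed genes at most steps and very low levels of others. Levels are compared between genes in FPKM, the authors' values scaled to gene length. Of 30 listed genes in ovulated CKO oocytes, 11 had a mean of over 10 FPKM, 9 lay between 1 and 10 FPKM and 10 were under 1 FPKM, and the counts in ovulated WT oocytes were 10, 10 and 10. Of 32 listed genes in GV CKO oocytes, the counts were 12, 10 and 10, and in GV WT oocytes they were 13, 10 and 9. Etfa, the alpha subunit of the electron transfer flavoprotein, averaged 157 ± 24 FPKM in ovulated CKO, 182 ± 48.9 FPKM in ovulated WT, 83 ± 15.6 FPKM in GV CKO and 91.3 ± 7.74 FPKM in GV WT libraries (SD, n = 3, 3, 4 and 4). It had the highest mean of the listed genes in every group but GV CKO, where the mean of Lonp2 was above it and the ranges of both genes overlapped. In GV WT their ranges overlapped too, and the means differed by less than the SD of Lonp2. Lonp2, a protease of the peroxisomal matrix, averaged 95.1 ± 30.6 FPKM in ovulated CKO, 43.9 ± 2.87 FPKM in ovulated WT, 109.6 ± 29.6 FPKM in GV CKO and 85.9 ± 34.2 FPKM in GV WT libraries. Acat1, the mitochondrial acetoacetyl-CoA thiolase, averaged 92 ± 21.1 FPKM in ovulated CKO, 112 ± 26.1 FPKM in ovulated WT, 55 ± 7.96 FPKM in GV CKO and 60.2 ± 7.58 FPKM in GV WT libraries, and Acsl3, a long-chain acyl-CoA synthetase of lipid droplets and the endoplasmic reticulum, averaged 73.4 ± 15.2 FPKM in ovulated CKO, 98.7 ± 19.7 FPKM in ovulated WT, 43.6 ± 10.0 FPKM in GV CKO and 47.7 ± 6.28 FPKM in GV WT libraries. Echs1, the short-chain enoyl-CoA hydratase, averaged 43 ± 7.92 FPKM in ovulated CKO, 47.1 ± 12.1 FPKM in ovulated WT, 43.4 ± 8.23 FPKM in GV CKO and 44.8 ± 7.19 FPKM in GV WT libraries. In GV WT oocytes Acsl3 and Echs1 were neighbours in this order whose means differed by less than their SD.

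Of the CPT1 family, none averaged over 1 FPKM in any group. Cpt1a, the liver form of the outer-membrane enzyme that commits long-chain fatty acids to import, was at 0.04, 0.12 and 0.04 FPKM in ovulated CKO, 0, 0.01 and 0.54 FPKM in ovulated WT, 0.04, 0.04, 0.04 and 0.03 FPKM in GV CKO and 0.1, 0.06, 0.04 and 0.05 FPKM in GV WT libraries. Its highest value, 0.54 FPKM, came from ovulated WT library 3, the library with the Tnfaip6 and Hsd3b1 counts. Cpt1c, a brain form known from the endoplasmic reticulum, with little enzyme activity, averaged 0.197 ± 0.0874 FPKM in ovulated CKO, 0.0600 ± 0.104 FPKM in ovulated WT, 0.550 ± 0.213 FPKM in GV CKO and 0.843 ± 0.335 FPKM in GV WT libraries. Cpt2, the partner enzyme of the inner membrane, averaged 7.72 ± 1.85 FPKM in ovulated CKO, 6.15 ± 0.957 FPKM in ovulated WT, 21.8 ± 5.44 FPKM in GV CKO and 33.8 ± 12.8 FPKM in GV WT libraries, which is above Cpt1a and Cpt1c in every library. Among the acyl-CoA dehydrogenases, Acadm, for medium chains, averaged 55.3 ± 12.6 FPKM in ovulated CKO, 58.9 ± 18.5 FPKM in ovulated WT, 16.4 ± 5.38 FPKM in GV CKO and 17.5 ± 3.06 FPKM in GV WT libraries. Acads, for short chains, was listed at 0 in 10 of the 14 libraries and reached 0.16 FPKM at most. Acadvl, for very long chains, averaged 0.693 ± 0.414 FPKM in ovulated CKO, 0.437 ± 0.290 FPKM in ovulated WT, 0.980 ± 0.280 FPKM in GV CKO and 2.24 ± 1.36 FPKM in GV WT libraries. Etfdh, which hands the electrons on to ubiquinone, averaged 0.193 ± 0.206 FPKM in ovulated WT and 0.583 ± 0.384 FPKM in GV WT oocytes, under Etfa in every library and resting on 0 to 63 counts per library.

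**Figure D1:**
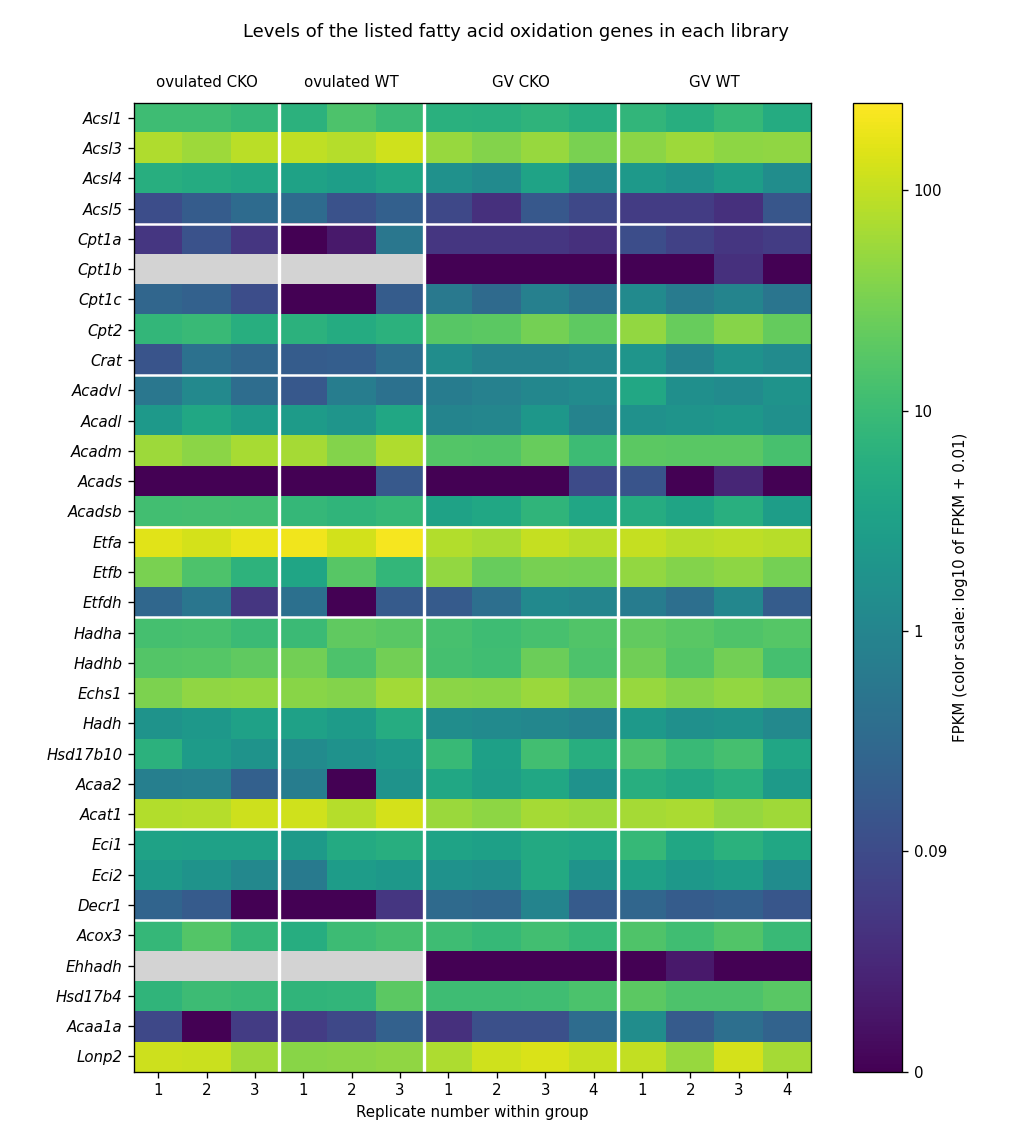
FPKM of the 32 listed genes (rows, by role between white lines) in each of the 14 libraries (columns, by group), on a color scale of log10(FPKM + 0.01). Etfa, Lonp2, Acat1 and Acsl3 are bright in every library, Cpt1a, Acads and Acsl5 are dark, and grey marks Cpt1b and Ehhadh, which were not listed for ovulated oocytes.

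Between the stages, genes of most steps of the pathway differed, and in both directions. In CKO oocytes, 13 of 29 tested genes (44.8%) passed an adjusted p of 0.05, 3 higher and 10 lower in ovulated oocytes, where 55.7% of all 13158 tested genes passed. In WT oocytes, 16 of 29 (55.2%) passed, 4 higher and 12 lower, where 63.7% of all tested genes passed. The share of listed genes that passed was thus below that of all genes in both genotypes. All genes split into 25.8% higher and 29.9% lower in CKO, and into 29.7% higher and 34% lower in WT. The median log2 fold change of the tested listed genes, ovulated over GV, was -0.78 in CKO and -0.70 in WT, against -0.14 and -0.08 over all tested genes. Of the genes that passed, 10 did so in both genotypes, all in the same direction, which is 76.9% of those in CKO and 62.5% of those in WT. Without a test, 13 of the 29 had CKO libraries that did not overlap between stages, 3 higher and 10 lower in ovulated oocytes, beside 58.6% of all tested genes (27.4% higher and 31.2% lower). In WT these were 12 of 29, 2 higher and 10 lower, beside 62.3% of all tested genes (27.3% higher and 35.1% lower). Without ovulated CKO libraries 1 and 2, 9 of 29 passed in CKO, 1 higher and 8 lower. Decr1 and Etfdh were then among the lower genes, and the calls of Acsl4, Acadsb, Cpt1c, Hsd17b4, Hadha and Echs1 were lost (adjusted p = 0.0692 to 0.504). Cpt1b and Ehhadh were not listed for ovulated oocytes and Acads had too few counts, so they were not tested. Adjusted p-values are from edgeR's quasi-likelihood test with Benjamini-Hochberg adjustment over all genes, and stage cannot be told apart from the deposited table, since each stage had its own.

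The split between higher and lower depended on the scaling. With library sizes taken as total counts, the median of all genes moved by 0.59 in CKO and by 0.34 in WT on the log2 scale, and 8 listed genes passed as higher and 3 as lower in CKO, and 6 as higher and 9 as lower in WT. The calls gained were those of Acsl3, Acadl, Etfa, Hadh and Acat1 in CKO and of Hadh and Acat1 in WT, all higher in ovulated oocytes. Fold changes below are therefore relative to the TMM scaling. Cpt2, Crat and Acaa2 were lower and Acadm and Acadsb higher in ovulated oocytes of both genotypes under both scalings. With total counts the calls of Cpt1c, Etfb, Hadha, Hsd17b10, Hsd17b4, Lonp2 and Echs1 in CKO (adjusted p = 0.12 to 0.982), and of Acaa1a, Acox3 and Hsd17b4 in WT (adjusted p = 0.0706 to 0.255), were lost. The listed genes with a higher mean in ovulated oocytes numbered 11 of 29 in each genotype with TMM, and 14 in CKO and 13 in WT with total counts.

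Of the 4 acyl-CoA synthetases, which activate fatty acids, all had higher means in ovulated oocytes of both genotypes, and 1 passed in each. Acsl4, which prefers polyunsaturated chains, had 22.5, 18.2 and 19 CPM in ovulated CKO, 16, 10.7 and 17.5 CPM in ovulated WT, 9.55, 8.81, 17.2 and 9.45 CPM in GV CKO and 10.6, 10.5, 12.5 and 9.80 CPM in GV WT libraries. The ovulated CKO libraries all lay above the GV CKO libraries, and the ovulated WT and GV WT libraries overlapped. Between stages it differed by a log2 fold change of 0.82 (SE 0.28, adjusted p = 0.018) in CKO and 0.44 (SE 0.28, adjusted p = 0.177) in WT oocytes. The CKO call was lost without ovulated CKO library 1 (adjusted p = 0.055). Acsl3 had 208, 147 and 255 CPM in ovulated CKO, 315, 209 and 359 CPM in ovulated WT, 191, 172, 163 and 165 CPM in GV CKO and 134, 219, 130.0 and 210.1 CPM in GV WT libraries. The WT groups overlapped, with ovulated WT library 2 inside the range of the GV WT libraries. This gave log2 fold changes of 0.24 (SE 0.27, adjusted p = 0.47) in CKO and 0.76 (SE 0.27, adjusted p = 0.0196) in WT. The WT call was lost without ovulated WT library 3, GV WT library 1 or GV WT library 3 (adjusted p = 0.0596 to 0.0815).

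Of the 4 carnitine acyltransferases tested, 3 fell in each genotype and none rose. Cpt2 (gene ID 12896, chromosome 4, 107903982 to 107923589, GRCm38) had 13.6, 14.7 and 10.8 CPM in ovulated CKO, 13.5, 7.91 and 12.6 CPM in ovulated WT, 42.4, 55.9, 60.2 and 65.2 CPM in GV CKO and 96.8, 60.1, 73.6 and 67 CPM in GV WT libraries. Every ovulated library lay below every GV library, at a mean 4.29-fold lower in CKO and 6.56-fold lower in WT. Ovulated over GV, the log2 fold change came to -2.10 (SE 0.27, adjusted p = 1.79e-05) in CKO and -2.71 (SE 0.28, adjusted p = 1.56e-06) in WT. Crat, which makes acetyl-carnitine from acetyl-CoA and buffers the mitochondrial acyl-CoA pool, had 0.403, 0.877 and 1.01 CPM in ovulated CKO, 0.602, 0.583 and 1.08 CPM in ovulated WT, 4.35, 3.41, 2.43 and 4.75 CPM in GV CKO and 5.00, 3.15, 4.41 and 4.87 CPM in GV WT libraries. Again no ovulated library reached the GV range. In log2 fold change, Crat was at -2.28 (SE 0.42, adjusted p = 0.000293) in CKO and -2.52 (SE 0.43, adjusted p = 9.1e-05) in WT. Cpt1c had 0.403, 0.301 and 0.168 CPM in ovulated CKO, 0, 0 and 0.304 CPM in ovulated WT, 1.35, 0.990, 1.47 and 1.38 CPM in GV CKO and 2.24, 1.62, 1.61 and 1.31 CPM in GV WT libraries. Both ovulated WT libraries at 0 allow up to 0.106 and 0.0875 CPM, the level of 3 counts. The log2 fold change was -2.14 (SE 0.76, adjusted p = 0.0239) in CKO and -4.03 (SE 0.86, adjusted p = 0.000699) in WT oocytes. The WT value rests on 9 counts in ovulated WT library 3 and became -8.54 without that library, and the CKO call was lost without GV CKO library 4, ovulated CKO library 2 or ovulated CKO library 3 (adjusted p = 0.053 to 0.0742). Cpt1a, tested at very low counts, had log2 fold changes of 0.19 (SE 1.14, adjusted p = 0.899) in CKO and 1.22 (SE 1.05, adjusted p = 0.32) in WT. The WT value rests on ovulated WT library 3, with 56 counts against 0 and 1 in ovulated WT libraries 1 and 2. Without that library Cpt1a turned and passed as lower in ovulated WT oocytes.

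The acyl-CoA dehydrogenases, which catalyse the first step of each round for their own chain lengths, went in both directions. Acadm (gene ID 11364, chromosome 3, 153922353 to 153944643) had 82.8, 56.8 and 109 CPM in ovulated CKO, 112, 52.3 and 121 CPM in ovulated WT, 33.5, 40.3, 40.6 and 28 CPM in GV CKO and 32.5, 41.5, 30.6 and 32.7 CPM in GV WT libraries. All ovulated libraries were above all GV libraries, at 2.33 times the GV level in CKO and 2.76 times in WT. Between stages it differed by a log2 fold change of 1.22 (SE 0.29, adjusted p = 0.00195) in CKO and 1.47 (SE 0.29, adjusted p = 0.000357) in WT oocytes. Acadsb, for short branched chains from isoleucine, had 29.2, 27.7 and 31.9 CPM in ovulated CKO, 25.6, 17.6 and 24.3 CPM in ovulated WT, 11.9, 18, 22.4 and 18.9 CPM in GV CKO and 15.1, 13.5, 16.7 and 12.1 CPM in GV WT libraries. Within each genotype the ovulated libraries were all higher than the GV libraries. This gave log2 fold changes of 0.73 (SE 0.25, adjusted p = 0.0187) in CKO and 0.65 (SE 0.25, adjusted p = 0.0303) in WT. The CKO call was lost without ovulated CKO library 3 (adjusted p = 0.0614), and the WT call without ovulated WT library 1 or 3 (adjusted p = 0.0857 and 0.106). Acadvl had 0.868, 1.67 and 0.639 CPM in ovulated CKO, 0.283, 1.05 and 0.744 CPM in ovulated WT, 1.48, 2.28, 1.98 and 3.92 CPM in GV CKO and 7.70, 3.62, 2.30 and 4.92 CPM in GV WT libraries. The WT groups did not overlap, whereas ovulated CKO library 2 lay inside the GV CKO range. Ovulated over GV, the log2 fold change came to -1.17 (SE 0.53, adjusted p = 0.0692) in CKO and -2.73 (SE 0.56, adjusted p = 0.000516) in WT. In the annotation, 45% of the exon bases of Acadvl overlap exons of Dvl2 on the other strand, and whether counting used strand is not given in the sources used here, so the reads of both genes may be mixed. Acadl, for long chains, had log2 fold changes of 0.76 (SE 0.35, adjusted p = 0.0775) in CKO and 0.38 (SE 0.35, adjusted p = 0.355) in WT.

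Of the electron transfer genes, Etfb fell in both genotypes and its partner subunit Etfa rose in WT. Etfb (gene ID 110826, chromosome 7, 43444072 to 43457800), the beta subunit, had 18, 7.32 and 4.17 CPM in ovulated CKO, 2.48, 9.13 and 4.97 CPM in ovulated WT, 36.3, 21.6, 20.1 and 29.9 CPM in GV CKO and 29.9, 30.6, 26.1 and 27.4 CPM in GV WT libraries. All ovulated libraries lay below all GV libraries, with a spread of several-fold among the ovulated ones. In log2 fold change, Etfb was at -1.46 (SE 0.45, adjusted p = 0.0119) in CKO and -2.36 (SE 0.47, adjusted p = 0.000405) in WT. The CKO call was lost without ovulated CKO library 2 or 3 (adjusted p = 0.0511 and 0.0535), and the CKO value was -2.21 without ovulated CKO library 1 and -2.70 without ovulated CKO libraries 1 and 2. Etfa (gene ID 110842, chromosome 9, 55454436 to 55512243) had 159, 119 and 196 CPM in ovulated CKO, 241, 116 and 237 CPM in ovulated WT, 106, 114, 122 and 153 CPM in GV CKO and 115, 126, 101 and 144 CPM in GV WT libraries. In WT, ovulated libraries 1 and 3 were above every GV library and ovulated library 2 was among them. The log2 fold change was 0.35 (SE 0.27, adjusted p = 0.279) in CKO and 0.71 (SE 0.27, adjusted p = 0.03) in WT oocytes. With total-count scaling it passed as higher in CKO too. Etfa was named as the partner of Etfb after its values were seen, and its WT call was lost without ovulated WT library 1 or 3 or GV WT library 1 or 3 (adjusted p = 0.0632 to 0.121). The FPKM ratio of Etfa to Etfb was 4.86, 8.93 and 25.7 in ovulated CKO, 53, 7.03 and 26.6 in ovulated WT, 1.59, 2.87, 3.29 and 2.75 in GV CKO and 2.07, 2.22, 2.08 and 2.85 in GV WT libraries. The ratio, also chosen after the values were seen and given with no test, was higher in each ovulated library than in any GV library. The other 2-subunit enzyme of the list, the trifunctional protein of Hadha and Hadhb, gave Hadha to Hadhb ratios of 0.743, 0.758 and 0.466 in ovulated CKO, 0.341, 1.40 and 0.659 in ovulated WT, 1.04, 0.982, 0.526 and 1.08 in GV CKO and 0.792, 1.13, 0.543 and 1.41 in GV WT libraries, and these ranges overlapped. Etfdh had log2 fold changes of -1.93 (SE 0.95, adjusted p = 0.092) in CKO and -1.68 (SE 0.96, adjusted p = 0.134) in WT.

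Of the 7 enzymes of hydration, second dehydrogenation and thiolysis, 4 fell in CKO and 2 in WT, and none passed as higher. With total-count scaling Hadh and Acat1 passed as higher in both genotypes, and Hadh also passed as higher in WT with DESeq2 and with the scaling of DESeq2 in edgeR. Hsd17b10 (gene ID 15108, chromosome X, 152001896 to 152004442), a hydroxyacyl-CoA dehydrogenase of isoleucine breakdown and a subunit of mitochondrial RNase P, had 3.72, 1.29 and 1.11 CPM in ovulated CKO, 0.850, 0.904 and 1.45 CPM in ovulated WT, 6.85, 2.92, 7.50 and 5.63 CPM in GV CKO and 9.01, 7.58, 7.44 and 3.67 CPM in GV WT libraries. The WT groups did not overlap, and in CKO ovulated library 1 lay above GV library 2. Between stages it differed by a log2 fold change of -1.49 (SE 0.47, adjusted p = 0.0131) in CKO and -2.69 (SE 0.50, adjusted p = 0.000216) in WT oocytes. The CKO call was lost without ovulated CKO library 2 or 3 (adjusted p = 0.0558 in each case), and the value was -2.37 without ovulated CKO libraries 1 and 2. Acaa2, the mitochondrial thiolase, had 0.806, 0.795 and 0.236 CPM in ovulated CKO, 0.886, 0 and 1.99 CPM in ovulated WT, 5.79, 5.10, 5.07 and 3.26 CPM in GV CKO and 6.61, 6.86, 6.81 and 4.37 CPM in GV WT libraries. The ovulated libraries were all below the GV libraries, and ovulated WT library 2, at 0, allows up to 0.0875 CPM. This gave log2 fold changes of -2.96 (SE 0.78, adjusted p = 0.00427) in CKO and -2.69 (SE 0.76, adjusted p = 0.00564) in WT. With limma-voom the WT value was -4.50. Hadha, the trifunctional protein's alpha subunit, had 24.9, 24 and 21.7 CPM in ovulated CKO, 24, 38.2 and 41.2 CPM in ovulated WT, 36, 37.5, 31.6 and 60.8 CPM in GV CKO and 51, 54.9, 34.5 and 60.5 CPM in GV WT libraries. In CKO the ovulated libraries were all below the GV libraries. Ovulated over GV, the log2 fold change came to -0.82 (SE 0.28, adjusted p = 0.021) in CKO and -0.54 (SE 0.28, adjusted p = 0.0984) in WT. The CKO call was lost without GV CKO library 2 or 4 or ovulated CKO library 3 (adjusted p = 0.0608 to 0.182), and the value was -0.44 without GV CKO library 4. Echs1, outside the limit on named genes and given to complete the count, fell by 0.58 on the log2 scale in CKO (SE 0.24, adjusted p = 0.0464), a call that 6 of the 7 removals of a single library ended and that total-count scaling turned to 0.0080. Acat1 had log2 fold changes of 0.16 (SE 0.30, adjusted p = 0.677) in CKO and 0.55 (SE 0.30, adjusted p = 0.118) in WT, Hadhb -0.34 (SE 0.32, adjusted p = 0.375) and -0.03 (SE 0.31, adjusted p = 0.931), and Hadh, the short-chain hydroxyacyl-CoA dehydrogenase, 0.49 (SE 0.37, adjusted p = 0.265) and 0.82 (SE 0.36, adjusted p = 0.0589), none of which passed with edgeR and TMM.

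The auxiliary enzymes that reshape double bonds of unsaturated chains had lower means in ovulated oocytes, with 1 call in edgeR. DESeq2 also called Eci1 and Decr1 lower in CKO, and limma-voom Decr1 in CKO and Eci1 in WT. Decr1, the dienoyl-CoA reductase, had 0.527, 0.329 and 0 CPM in ovulated CKO, 0, 0 and 0.101 CPM in ovulated WT, 0.930, 0.990, 2.35 and 0.663 CPM in GV CKO and 0.658, 0.554, 0.494 and 0.502 CPM in GV WT libraries. In both genotypes the ovulated libraries were all below the GV libraries. Ovulated WT libraries held 3 counts in all, against 58 in GV WT libraries, a ratio of 0.0585 with a 95% counting interval of 0.0117 to 0.18. This call in WT had an adjusted p of 0.00636, and in CKO the log2 fold change was -2.09 (SE 0.88, adjusted p = 0.0524). Eci1 and Eci2, the enoyl-CoA isomerases, had log2 fold changes of -0.78 (SE 0.33, adjusted p = 0.0536) and -0.93 (SE 0.44, adjusted p = 0.0777) in CKO, and of -0.70 (SE 0.33, adjusted p = 0.0709) and -0.70 (SE 0.43, adjusted p = 0.169) in WT. Of the peroxisomal genes, Lonp2 (gene ID 66887, chromosome 8, 86624043 to 86716636) had 129, 112 and 76.3 CPM in ovulated CKO, 62.1, 50.1 and 64.6 CPM in ovulated WT, 109, 223, 189 and 223 CPM in GV CKO and 130.3, 91.4, 155 and 124 CPM in GV WT libraries. The WT groups did not overlap and the CKO groups did. In log2 fold change, Lonp2 was at -0.81 (SE 0.28, adjusted p = 0.0212) in CKO and -1.09 (SE 0.28, adjusted p = 0.00315) in WT. The CKO call was lost without GV CKO library 2 or 4 or ovulated CKO library 3 (adjusted p = 0.0998 to 0.108), and the value was -1.29 without ovulated CKO libraries 1 and 2. Hsd17b4, the peroxisomal bifunctional enzyme, had 15, 18.4 and 19.8 CPM in ovulated CKO, 17.8, 13.9 and 42.6 CPM in ovulated WT, 29.7, 35.8, 26.5 and 52.8 CPM in GV CKO and 44.5, 43.4, 32.1 and 64.7 CPM in GV WT libraries. In CKO the ovulated libraries were all below the GV libraries, and in WT ovulated library 3 reached the GV range. The log2 fold change was -1.03 (SE 0.37, adjusted p = 0.0249) in CKO and -0.90 (SE 0.36, adjusted p = 0.0405) in WT oocytes. These calls were lost without GV CKO library 2 or 4 or ovulated CKO library 1 or 2 (adjusted p = 0.0511 to 0.137), and without GV WT library 1, 2 or 4 or ovulated WT library 1 or 2 (adjusted p = 0.0595 to 0.155), and the values were -0.66 in CKO without GV CKO library 4 and -1.54 in WT without ovulated WT library 3. Acaa1a, the peroxisomal thiolase, had 0.0930, 0 and 0.0673 CPM in ovulated CKO, 0.0708, 0.0875 and 0.304 CPM in ovulated WT, 0.0423, 0.198, 0.147 and 0.829 CPM in GV CKO and 1.94, 0.298, 0.559 and 0.502 CPM in GV WT libraries. Ovulated WT library 3 was slightly above GV WT library 2, and the CKO groups overlapped. Between stages it differed by a log2 fold change of -2.40 (SE 1.14, adjusted p = 0.082) in CKO and -2.41 (SE 0.99, adjusted p = 0.0435) in WT oocytes. Its WT call was lost without GV WT library 4 or ovulated WT library 1 or 2 (adjusted p = 0.0539 to 0.127), it was no longer tested without GV WT library 3 or GV WT library 1, the library at 1.94 CPM, and its reads may be shared with the near-identical gene Acaa1b. The last of the genes that passed in WT, Acox3, the oxidase of branched chains, fell by 0.80 on the log2 scale (SE 0.27, adjusted p = 0.0177), which was lost without GV WT library 4 or ovulated WT library 1 (adjusted p = 0.0635 and 0.101).

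**Figure D2:**
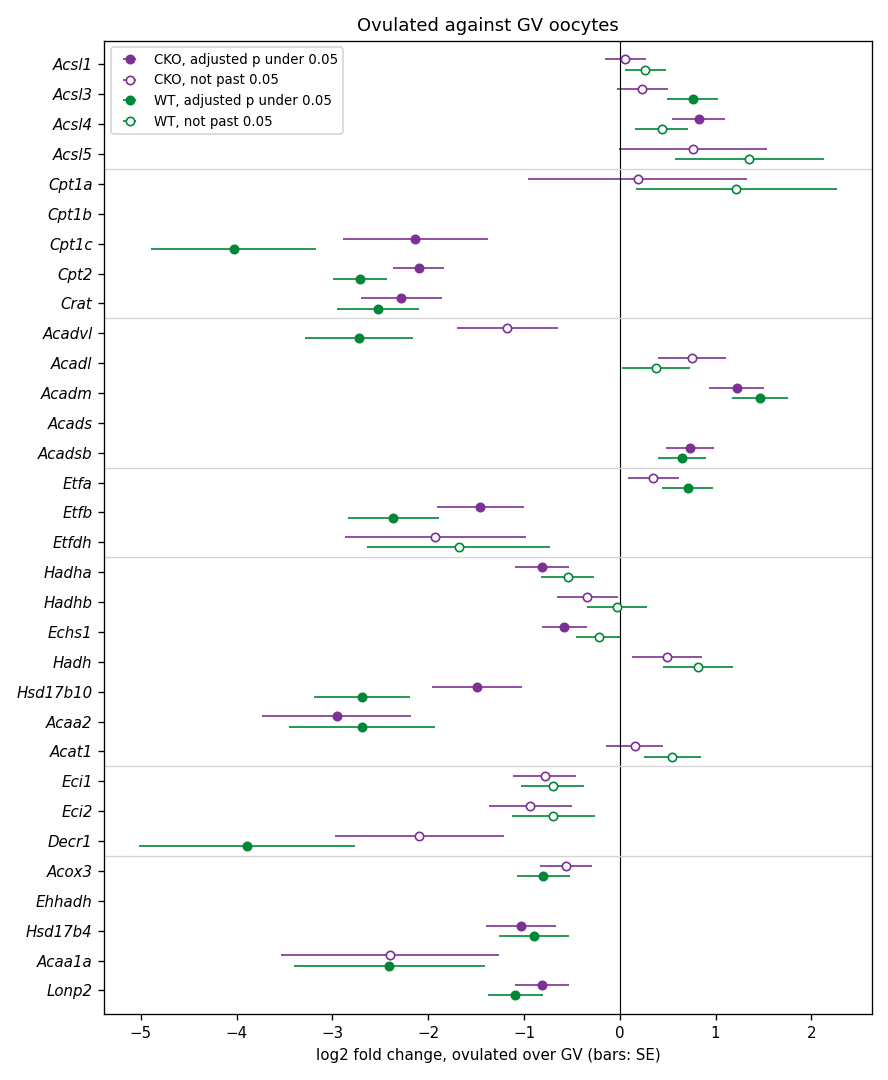
Log2 fold change of ovulated over GV oocytes for each tested listed gene in CKO and in WT oocytes, with SE bars. Filled points passed an adjusted p of 0.05, and genes with no point were not tested. Cpt2, Crat, Etfb, Hsd17b10 and Acaa2 lie left of 0 and Acadm and Acadsb right of 0, all filled in both genotypes.

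**Figure D3:**
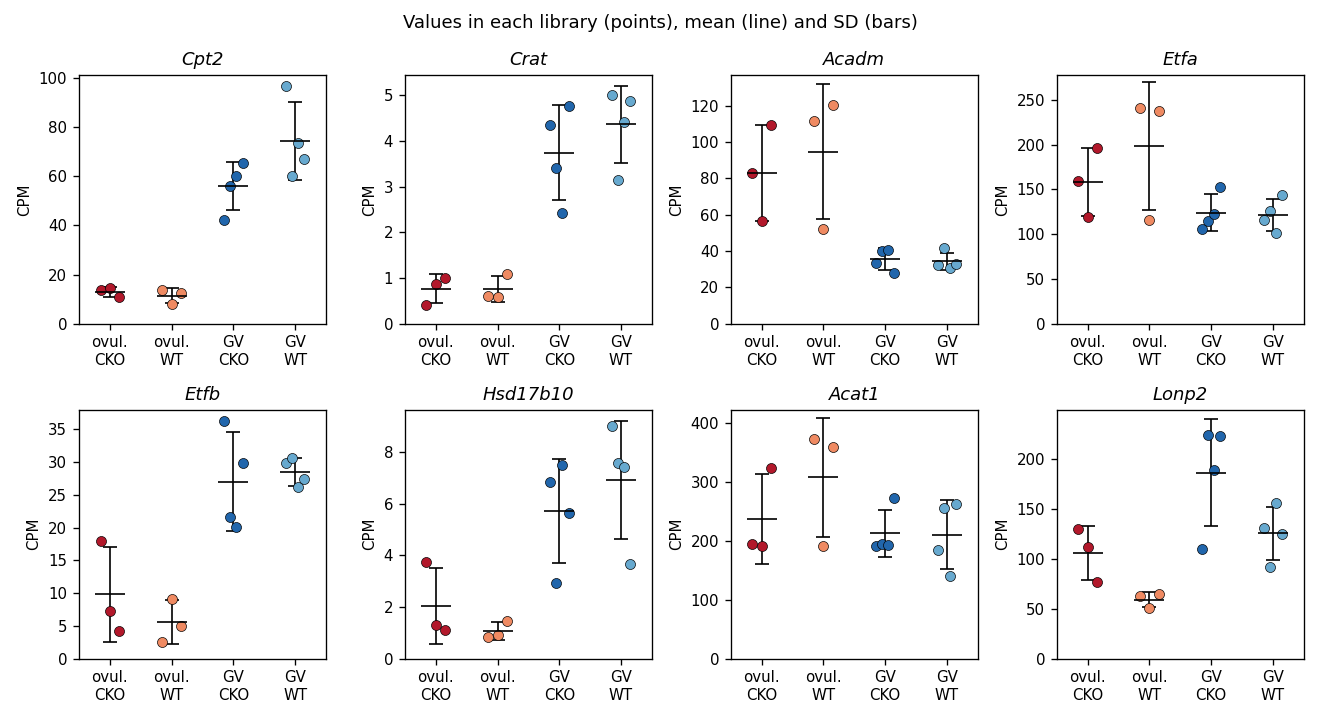
CPM of 8 listed genes in each library (points), with the group mean (line) and SD (bars), for 3 ovulated CKO, 3 ovulated WT, 4 GV CKO and 4 GV WT libraries. Cpt2, Crat and Etfb of every ovulated library lie below every GV library and Acadm above. Acat1 overlaps between stages, and Lonp2 of ovulated CKO libraries lies above that of ovulated WT libraries.

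In maturing mouse oocytes, stored mRNAs that carry a cytoplasmic polyadenylation element near the poly(A) signal are known to gain longer tails, and the ends of the listed transcripts are shown for that reason. The motifs of this element, TTTTAT and TTTTAAT, were searched in the last 100 bases of the annotated 3′ UTR of 1 transcript per gene (GENCODE M21, GRCm38), on the transcript's strand. TTTTAAT can share its last bases with the poly(A) signal AATAAA. Of the tested listed genes with such a window, 2 of 4 that passed as higher in WT held a motif, 1 of 11 that passed as lower, and 2 of 13 that did not pass. Over all tested genes with a window, 29.1% of those higher in ovulated WT oocytes held a motif, 11.2% of those lower and 19.9% of the others. In CKO the shares were 30.4%, 11.4% and 18.9%, and of the listed genes 1 of 3 higher, 1 of 9 lower and 3 of 16 others held a motif. The motifs occurred in 17.8% of the 19816 windows of the annotation. For Acadm and Etfa, which passed as higher in WT, and Crat, which passed as lower, the 30 bases around the motif nearest the end are shown with the motif in capitals. Acsl3 and Acadsb, which also passed as higher in WT, held no motif and are not shown. Crat held no AATAAA or ATTAAA in its last 40 bases. For Cpt2, Hsd17b10 and Lonp2, which passed as lower and held none, 30 bases with the poly(A) signal are shown, with AATAAA and ATTAAA in capitals.
Acadm (chr3:153922387-153922416, minus strand): actgaacgagaaTTTTATttgtcttgttta
Etfa (chr9:55454578-55454607, minus strand): tattatattcctTTTTAATtttttgtggtt
Crat (chr2:30400498-30400527, minus strand): cagagtttcagaTTTTATtttaaaacaata
Cpt2 (chr4:107903994-107904023, minus strand): gtatttattgtttaaatagaAATAAAccca
Hsd17b10 (chrX:152004402-152004431, plus strand): tccactcaccctcggtgcctAATAAAttct
Lonp2 (chr8:86716602-86716631, plus strand): gaaatgttggcttAATAAAgtcATTAAAcc
A match is a description of the annotated sequence. No test was made on the listed genes. Tail length was not measured, and its part in the read levels and stage differences given here was not tested.

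Of 80 other genes of fatty acid uptake, carnitine supply, lipid droplets, further oxidation enzymes, regulators and ketone bodies, 68 were tested between stages. In CKO, 11 were higher and 24 lower in ovulated oocytes (51.5% of those tested), and in WT 12 were higher and 29 lower (60.3%), beside 55.7% and 63.7% of all genes. Without ovulated CKO libraries 1 and 2, 9 of 73 tested were higher and 25 lower in CKO. Ppard, a nuclear receptor for fatty acids, had 10.4, 16.9 and 10.7 CPM in ovulated CKO, 10.2, 25.4 and 5.44 CPM in ovulated WT, 2.62, 0.990, 0.808 and 0.276 CPM in GV CKO and 0.790, 1.15, 2.17 and 0.251 CPM in GV WT libraries. Every ovulated library was above every GV library. This gave log2 fold changes of 3.41 (SE 0.67, adjusted p = 0.000474) in CKO and 3.62 (SE 0.67, adjusted p = 0.00021) in WT. Ppargc1b, a coactivator of mitochondrial genes, and Ppara, the fatty acid receptor that drives oxidation genes in liver, also rose. The log2 fold changes of Ppargc1b were 1.70 (SE 0.36, adjusted p = 0.000922) in CKO and 2.09 (SE 0.36, adjusted p = 0.000121) in WT, and those of Ppara 1.32 (SE 0.28, adjusted p = 0.000766) and 1.37 (SE 0.28, adjusted p = 0.00043). Phyh, the peroxisomal phytanoyl-CoA hydroxylase, rose in CKO (log2 fold change 1.20, SE 0.38, adjusted p = 0.0123), a call lost without ovulated CKO library 3 (adjusted p = 0.0671), and Acot2, a mitochondrial thioesterase, rose in WT (log2 fold change 1.93, SE 0.51, adjusted p = 0.00373), a call lost without ovulated WT library 1 (1.23, adjusted p = 0.0514). Prkaa1, a catalytic subunit of the AMP-activated kinase, had 15.4, 10.8 and 5.62 CPM in ovulated CKO, 4.11, 5.05 and 7.60 CPM in ovulated WT, 89.2, 113, 119 and 102 CPM in GV CKO and 112, 105, 112 and 117 CPM in GV WT libraries. All ovulated libraries lay far below all GV libraries. Ovulated over GV, the log2 fold change came to -3.32 (SE 0.33, adjusted p = 3.22e-06) in CKO and -4.32 (SE 0.35, adjusted p = 4.58e-07) in WT. Also lower were Acot8, a peroxisomal thioesterase (log2 fold change -3.23, SE 0.39, adjusted p = 1.09e-05), Acad12, an acyl-CoA dehydrogenase (log2 fold change -3.19, SE 0.63, adjusted p = 0.000468), and Plin2, the lipid droplet coat protein (log2 fold change -3.12, SE 0.51, adjusted p = 0.000111), in CKO. In WT, the thioesterase Acot13 (log2 fold change -4.99, SE 0.64, adjusted p = 8.24e-06), malonyl-CoA decarboxylase Mlycd (log2 fold change -3.96, SE 0.47, adjusted p = 4.25e-06) and glutaryl-CoA dehydrogenase Gcdh (log2 fold change -3.96, SE 0.45, adjusted p = 3.08e-06) were lower. Genes named in 1 genotype were those with its 4 largest changes per direction. Their counts, summed without scaling over 4 GV and 3 ovulated libraries, moved the same way from GV to ovulated in the other genotype. Such sums show a direction and not the size of a change. In WT they were 2151 to 193 for Acot8, 275 to 19 for Acad12, 978 to 150 for Plin2 and 881 to 1935 for Phyh. In CKO they were 9051 to 2249 for Acot13, 1083 to 274 for Mlycd, 946 to 223 for Gcdh and 189 to 423 for Acot2.

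**Figure D4:**
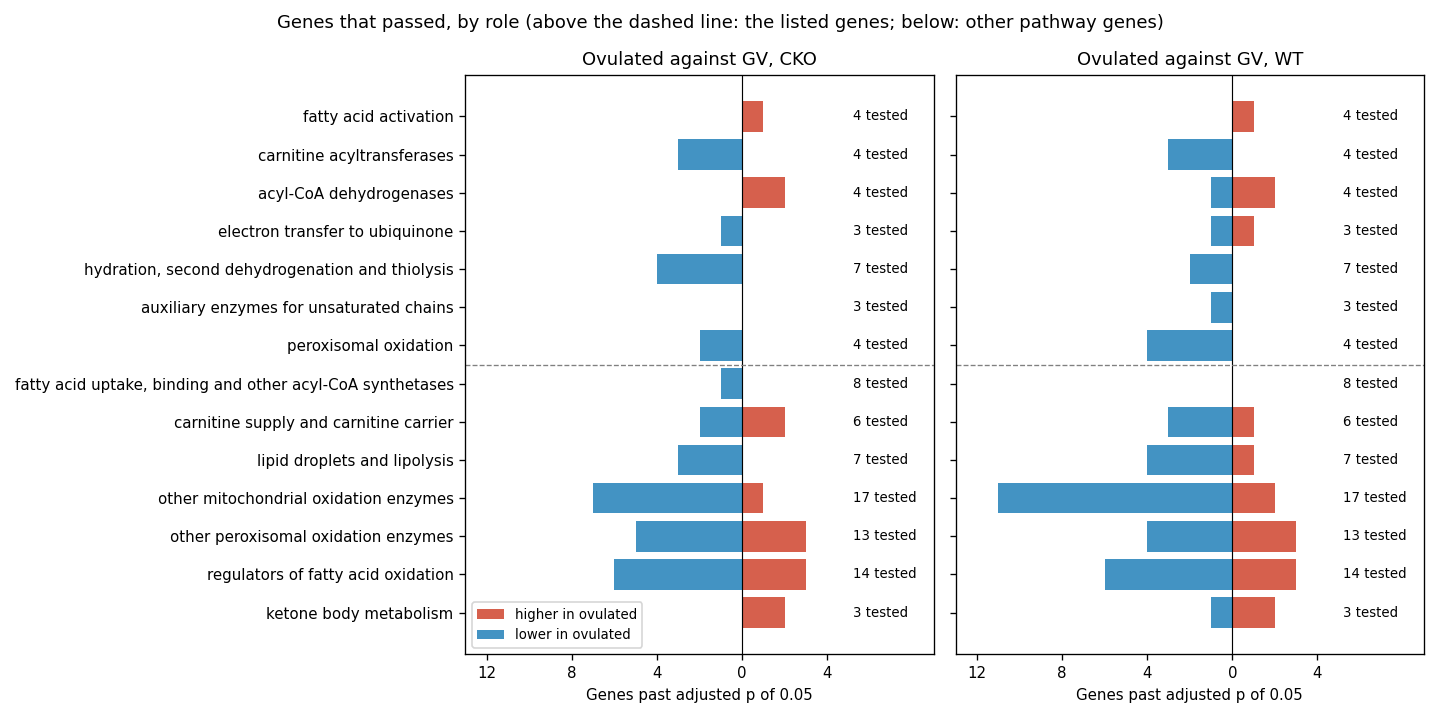
Number of genes past an adjusted p of 0.05 in each role, to the right of 0 if higher and to the left if lower in ovulated than GV oocytes, in CKO and in WT. The number tested stands beside each bar. Among the listed genes (above the dashed line), the 3 carnitine acyltransferases that passed in each genotype and every peroxisomal gene that passed were lower in ovulated oocytes.

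Between CKO and WT, no listed gene passed the threshold at either stage. In ovulated oocytes 25 listed genes were tested and 0 passed with edgeR, DESeq2 or limma-voom, where 0.0083% of all 12044 tested genes passed with edgeR. Of the 25, 10 had higher and 15 lower means in CKO, with a median log2 fold change of -0.19 against -0.0005 over all genes, and without ovulated WT library 3 the median was 0.16. An unadjusted p under 0.05 was reached by 1 of the 25, beside 7.76% of all genes. This was Lonp2 (unadjusted p = 0.0114 with edgeR), with 129, 112 and 76.3 CPM in ovulated CKO libraries, against 62.1, 50.1 and 64.6 CPM in ovulated WT libraries. All CKO libraries were higher than all WT libraries. Its log2 fold change, CKO over WT, was 0.82 (SE 0.27, adjusted p = 0.529), and without ovulated CKO libraries 1 and 2 it was 0.44 (SE 0.47, adjusted p = 0.999). Acsl4 and Acadsb also had CKO libraries that were all higher, so 3 of 25 listed genes did not overlap, beside 10.6% of all tested genes (5.51% with CKO higher and 5.12% with CKO lower). The next 5 by p-value were Hadha, Acsl3, Hsd17b10, Hadhb and Hadh, none past the threshold. Hadha had 24.9, 24 and 21.7 CPM in ovulated CKO libraries, against 24, 38.2 and 41.2 CPM in ovulated WT libraries, which overlapped, with a log2 fold change of -0.57 (SE 0.30, adjusted p = 0.697). Hsd17b10 had 3.72, 1.29 and 1.11 CPM in ovulated CKO libraries, against 0.850, 0.904 and 1.45 CPM in ovulated WT libraries. Its log2 fold change of 0.89 (SE 0.63, adjusted p = 0.764) was 0.19 without ovulated CKO library 1, the only ovulated library above 2 CPM, and 0.13 without ovulated CKO libraries 1 and 2. The log2 fold changes were -0.54 (SE 0.31, adjusted p = 0.715) for Acsl3, -0.52 (SE 0.38, adjusted p = 0.769) for Hadhb and -0.68 (SE 0.50, adjusted p = 0.773) for Hadh. These 3 values moved with single libraries. Acsl3 was at -0.34 without ovulated CKO library 2 and -0.83 without library 3, Hadhb at -0.32 without ovulated WT library 1, -0.83 without ovulated WT library 2 and -0.81 without ovulated CKO library 3, and Hadh at -0.39 without ovulated WT library 3 and -1.16 without ovulated CKO library 3. Without ovulated CKO libraries 1 and 2 they were -0.14, -0.12 and -0.06, and 0 of 26 listed genes tested passed or had an unadjusted p under 0.05. Decr1, too scarce to be tested here, held 29 counts in ovulated CKO, 17 and 12 in libraries 1 and 2 and 0 in library 3, and 3 in ovulated WT libraries, a ratio of 9.04 with a 95% counting interval of 2.80 to 46.4, which covers counting error only.

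In GV oocytes 27 listed genes were tested and 0 passed with any of the 3 tools, where 0.0245% of all 12265 tested genes passed with edgeR (0.0163% higher and 0.00815% lower in CKO). Of the 27, 11 had higher and 16 lower means in CKO, with a median of -0.19 against 0.02 over all genes. With total-count scaling, which moved the median of all genes by -0.16, the split was 5 higher and 22 lower. An unadjusted p under 0.05 was reached by 3 of the 27, Decr1, Acadvl and Lonp2, beside 5.74% of all genes. Decr1 had 0.930, 0.990, 2.35 and 0.663 CPM in GV CKO libraries, against 0.658, 0.554, 0.494 and 0.502 CPM in GV WT libraries. All CKO libraries were higher, and Decr1 was the only listed gene whose GV groups did not overlap, beside 3.65% of all tested genes (1.35% with CKO higher and 2.3% with CKO lower). Its log2 fold change was 1.16 (SE 0.43, adjusted p = 0.834). Acadvl had 1.48, 2.28, 1.98 and 3.92 CPM in GV CKO libraries, against 7.70, 3.62, 2.30 and 4.92 CPM in GV WT libraries, and its log2 fold change was -0.95 (SE 0.41, adjusted p = 0.834). The groups overlapped, and the Dvl2 overlap given above applies. Lonp2 had 109, 223, 189 and 223 CPM in GV CKO libraries, against 130.3, 91.4, 155 and 124 CPM in GV WT libraries. GV CKO library 1 lay inside the WT range and the other CKO libraries above it, with a log2 fold change of 0.57 (SE 0.26, adjusted p = 0.834). The next 3 by p-value had log2 fold changes of -0.42 (SE 0.21, adjusted p = 0.834) for Cpt2, -1.54 (SE 0.79, adjusted p = 0.834) for Acaa1a and -0.37 (SE 0.25, adjusted p = 0.852) for Acaa2. Without GV WT library 1 the values were -0.57 for Acadvl, -0.25 for Cpt2 and -0.64 for Acaa1a, without GV CKO library 3 Decr1 was at 0.62, and without GV CKO library 4 Acaa1a was at -2.70 and Acaa2 at -0.24. Of 60 other pathway genes tested, 0 passed at either stage with edgeR, and at an unadjusted p under 0.05 there were 5 in ovulated and 1 in GV oocytes, beside 7.76% and 5.74% of all genes.

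**Figure D5:**
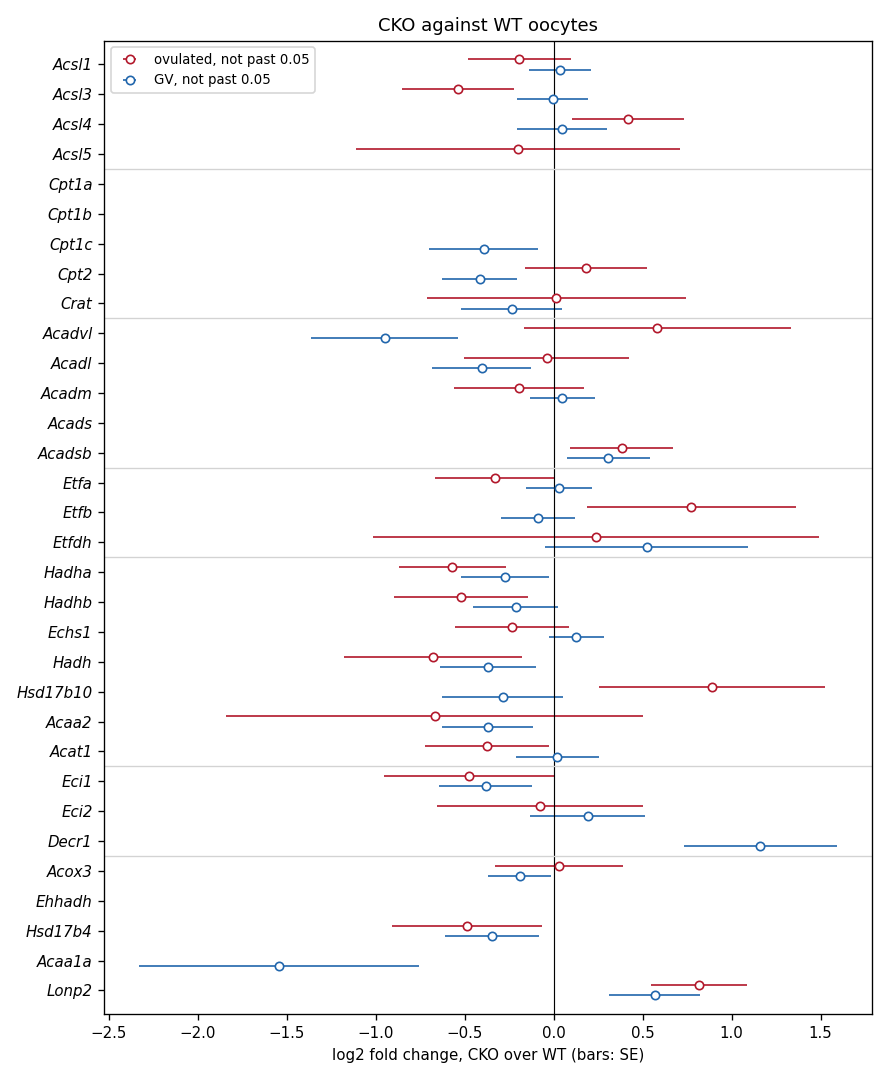
Log2 fold change of CKO over WT for each tested listed gene in ovulated and in GV oocytes, with SE bars. All points are open, as none passed an adjusted p of 0.05. Lonp2 lies right of 0 at both stages.

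The effect of Clpx loss was then compared between stages, as the ovulated log2 fold change minus the GV one. Of 29 listed genes tested, 0 passed with edgeR, DESeq2 or limma-voom, and 0.0076% of all 13158 genes passed with edgeR. None of the 29 had an unadjusted p under 0.05, beside 9.16% of all genes. Of 68 other pathway genes, 0 passed and 12 had an unadjusted p under 0.05. The 6 smallest p-values belonged to Acadvl, with a difference of 1.55 (SE 0.74, adjusted p = 0.544), Hsd17b10 with 1.20 (SE 0.65, adjusted p = 0.609), Cpt1c with 1.89 (SE 1.09, adjusted p = 0.637), Cpt2 with 0.61 (SE 0.36, adjusted p = 0.651), Etfb with 0.90 (SE 0.62, adjusted p = 0.736) and Acsl3 with -0.53 (SE 0.38, adjusted p = 0.754). For Acadvl the Dvl2 overlap given above applies here too. Etfb and Hsd17b10 varied among ovulated CKO libraries, from 4.17 to 18 CPM and from 1.11 to 3.72 CPM, and without ovulated CKO library 1 the differences were 0.14 for Etfb and 0.48 for Hsd17b10. Etfb was at 0.51 without ovulated WT library 1 and 1.504 without ovulated WT library 2. Cpt1c was at 6.40 without ovulated WT library 3, and without ovulated CKO library 2 Acadvl was at 1.02 and Acsl3 at -0.34. Without ovulated CKO libraries 1 and 2 the differences were -0.32 for Etfb, 0.34 for Hsd17b10, 0.83 for Acadvl, 1.12 for Cpt1c, 0.35 for Cpt2 and -0.20 for Acsl3, and of the other pathway genes 4 of 73 tested had an unadjusted p under 0.05. Of 24 listed genes tested for genotype at both stages, 12 had the same sign at both, 4 higher in CKO (Acsl4, Acadsb, Etfdh and Lonp2) and 8 lower, beside 55.6% of all genes. Lonp2 is the 1 listed gene with an unadjusted p under 0.05 at both stages with edgeR and TMM, and its difference between stages was 0.28 (SE 0.39, adjusted p = 0.909). Its log2 fold change, CKO over WT, was 0.44 in ovulated oocytes without ovulated CKO libraries 1 and 2. In GV oocytes it was 0.33 with total-count scaling, against 0.57 with TMM.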

How the data were processed

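Libraries were grouped from the titles in the labels. The authors deposited estimated counts per gene, some of them fractional, and FPKM, with 1 column per library and 1 table per stage. Build mm10 is named per the submitters' processing notes, and the aligner, counter, annotation, filters and use of strand are not given in the sources used here. The deposited FPKM were used to compare levels between genes, and the count columns correlated best with the FPKM of the same library (r of at least 0.988 in each).

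Counts were rounded and tested with edgeR 4.0.16 (quasi-likelihood; library sizes scaled by TMM; low genes dropped by filterByExpr, min.count 10) in R 4.3.3, with Benjamini-Hochberg adjustment over all genes and a threshold of 0.05. CKO and WT were compared within each stage's table. The stage comparisons, and the difference of the CKO effect between stages, came from 1 fit of all 14 libraries over genes listed in both tables. The CPM shown use the scaling of that fit, and SE is the log2 fold change divided by the root of its F statistic. The test was tried on simulated counts. DESeq2 1.42.0, limma-voom (limma 3.58.1), 2 other scalings, no filter, other fits, a replicate block and leaving out each library were alternatives, and leaving out ovulated CKO libraries 1 and 2 together was added after seeing the data.

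The listed genes and the other pathway and marker lists were chosen with earlier results of these data known. In each comparison the listed genes that passed were to be named, or the 12 with the largest change where more passed, or the 6 with the smallest p where fewer than 4 passed. Acsl3, Etfa, Acadsb and Acox3 in WT and Echs1 in CKO lie outside that limit and were named after their values were seen. From the other pathway genes, the 4 with the largest change per direction among those past the threshold and with a mean of at least 1 CPM were named. In the 18 pairs of replicates, counts differed by more than sampling noise (chi-square per degree of freedom 40.5 to 325), so that none was counted as 1 sample. Intervals and floors (3 counts) cover counting error only. RefSeq identifiers matched 18509 of 18562 gene IDs and all listed genes. Transcript ends were read from GENCODE M21 on GRCm38, the assembly that mm10 names. Protein sequences were not used here.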

Additional observations from a re-analysis of the deposited data

Results flagged for a closer look

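In groups of 4 libraries, a library was marked where it lay far from the other 3. Of the 56 gene and group combinations looked at, 5 were marked, where chance gives about 1 in 20, or 2.8. Acsl4 was at 17.2 CPM in GV CKO library 3, against 8.81 to 9.55 CPM in the other GV CKO libraries. Acaa2 was at 4.37 CPM in GV WT library 4, against 6.61 to 6.86 CPM in the others. Acat1, the acetoacetyl-CoA thiolase, was at 272 CPM in GV CKO library 4, against 191 to 194 CPM in the others. Acaa1a was at 1.94 CPM in GV WT library 1, against 0.298 to 0.559 CPM in the others. Clpx itself was at 58.1 CPM in GV WT library 1, against 39.57 to 39.98 CPM in the others.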

How the results depend on the processing

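Of 948 values of named genes under alternatives, 872 kept their direction and their side of the threshold, 74 kept their direction and lost the threshold, and 2 turned, Echs1 in CKO between stages to 0.0080 with total-count scaling and Etfb in the difference between stages to -0.32 without ovulated CKO libraries 1 and 2. This last alternative was chosen after seeing the data; over all genes it called 1 in ovulated oocytes, 0 in the difference and 6600 between stages in CKO. No listed gene passed between CKO and WT, or in the difference between stages, under any alternative, single libraries left out included (0 to 0). Named genes of these comparisons thus had no call to lose, and all values that lost the threshold came from ovulated against GV oocytes. With single libraries left out, these were 26 of 147 values in CKO and 20 of 166 in WT. Cpt1a was not among the genes of these values, and it turned to a call as lower in WT without ovulated WT library 3. Over all genes, DESeq2 called 39 in GV and 114 in ovulated oocytes and 64 in the difference between stages, where limma-voom and the replicate block called 0, and the fit of all 4 groups called 64 in ovulated oocytes. Without single libraries the counts over all genes were 3 to 6 in GV, 1 to 201 in ovulated oocytes and 0 to 498 in the difference, the highest of the last 2 without ovulated CKO library 3. Between stages, 7 to 13 listed genes passed in CKO (7 without ovulated CKO library 3, 8 without GV CKO library 4) and 12 to 16 in WT, and over all genes 6362 to 7151 in CKO and 7552 to 8301 in WT. The replicate block gave 8 listed genes in CKO, 3 higher and 5 lower, and 14 in WT. DESeq2 called 17 listed genes in CKO (adding Etfdh, Eci1, Decr1 and Acaa1a as lower) and 17 in WT (adding Hadh as higher), limma-voom 14 in CKO (adding Decr1) and 18 in WT (adding Etfdh and Eci1 as lower), and the scaling of DESeq2 in edgeR 17 in WT (adding Hadh). Replicate numbers share no stated animal or batch, and same-numbered CKO and WT libraries did not deviate together throughout (r of -0.25, 0.20, 0.33 and 0.33 in GV and -0.23, 0.26 and -0.02 in ovulated oocytes). With total-count scaling, the share of calls over all genes that were higher in ovulated oocytes was 67.5% in CKO and 56% in WT, against 46.3% and 46.6% with TMM. In a fit of the 2 groups compared, Echs1, Hadha and Lonp2 in CKO (adjusted p = 0.0533 to 0.114) and Hsd17b4 in WT (adjusted p = 0.0602) were lost, and with no filter Echs1 in CKO (adjusted p = 0.0849) and Acaa1a in WT (adjusted p = 0.0545). The causes were not tested. Depth limits Cpt1a, Cpt1c, Decr1, Acaa1a and Acads most; their counts per library are few.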

Other observations

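Between ovulated CKO and ovulated WT oocytes, 60 other pathway genes were tested. Of these, 32 had higher and 28 lower means in CKO, beside 50% of all tested genes with a higher mean. In each direction 3 had groups that did not overlap, beside 5.51% of all tested genes with CKO higher and 5.12% with CKO lower. The 5 with an unadjusted p under 0.05 are given after their values were seen, and none passed the threshold. Acot13, a mitochondrial acyl-CoA thioesterase, was at 47.4, 17.3 and 3.03 CPM in ovulated CKO libraries, against 2.62, 3.06 and 2.87 CPM in ovulated WT libraries. Ovulated CKO libraries 1 and 2 lay above every ovulated WT library and library 3 among them. Its log2 fold change between CKO and WT was 2.92 (SE 0.73, unadjusted p = 0.00216, adjusted p = 0.524 with edgeR), and it was 0.16 without ovulated CKO libraries 1 and 2. Mlycd, the malonyl-CoA decarboxylase, was at 3.01, 4.00 and 1.04 CPM in ovulated CKO libraries, against 0.850, 0.817 and 0.473 CPM in ovulated WT libraries. Every ovulated CKO library was above every ovulated WT library, with a log2 fold change of 1.87 (SE 0.64, unadjusted p = 0.0136, adjusted p = 0.551 with edgeR), and 0.61 without ovulated CKO libraries 1 and 2. Mcee, the methylmalonyl-CoA epimerase, was at 23.2, 16.6 and 1.45 CPM in ovulated CKO libraries, against 1.42, 4.87 and 2.13 CPM in ovulated WT libraries, which overlapped. Its log2 fold change was 2.23 (SE 0.80, unadjusted p = 0.0176, adjusted p = 0.573 with edgeR), and -0.89 without ovulated CKO libraries 1 and 2. The fatty acid transporter Slc27a6 was at 0.186, 0.0822 and 0.303 CPM in ovulated CKO libraries, against 0.992, 0.583 and 0.744 CPM in ovulated WT libraries, all CKO libraries being lower. Its log2 fold change was -2.01 (SE 0.86, unadjusted p = 0.04, adjusted p = 0.617 with edgeR). Fabp5, a fatty acid binding protein, was at 44.6, 45.2 and 60.9 CPM in ovulated CKO libraries, against 35.6, 142.9 and 129 CPM in ovulated WT libraries, which overlapped, with a log2 fold change of -1.04 (SE 0.45, unadjusted p = 0.0407, adjusted p = 0.617 with edgeR). Without ovulated CKO libraries 1 and 2 the values were -1.27 for Slc27a6 and -0.68 for Fabp5. Of the 8 tested genes of fatty acid uptake, binding and other acyl-CoA synthetases, 1 had a higher and 7 had lower means in CKO. This role was named after its values were seen. Higher means were found in 10 of 13 regulators and 10 of 14 other mitochondrial oxidation enzymes, beside 50% of all genes. These roles too were named after their values were seen. Without ovulated CKO libraries 1 and 2, genes of fatty acid uptake and binding lay in both directions, such as Cd36 at 0.29 and Fabp5 at -0.68. So did regulators, such as Pparg at 0.18 and Ppara at -0.26, and mitochondrial enzymes, such as Hibadh at 0.22 and Pcca at -0.23. Of 67 other pathway genes then tested, 34 had higher and 33 lower means in CKO.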
